A study of Mus musculus with 93 samples.

Results

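The clustered protocadherins were followed through 5 stages of mouse olfactory sensory neuron development, in 85 single cells. The members are all rows of the deposited gene table whose annotated gene name starts with Pcdha, Pcdhb or Pcdhg, which gave 24 of 32975 rows: 1 for the Pcdha cluster, 22 for the Pcdhb cluster and 1 for the Pcdhg cluster. The cells were picked by hand from dissociated olfactory epithelium of C57BL/6 mice, and poly(A) RNA was copied from an oligo(dT) primer and amplified by PCR before sequencing. By their labels 11 cells are of the Progenitor stage and 9 are Precursor cells, followed by 27 Early Immature Neuron cells, 13 cells labelled Late Immature Neuron and, last, 25 Mature Neuron cells, an order called stage order here. No treatment, transgene, animal, sex or age is given. A technical repeat library exists for 8 cells, so there are 93 libraries. Only the first library of each cell entered the stage values.

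Clustered protocadherins are cell surface proteins of the cadherin superfamily that bind copies of themselves on a neighbouring membrane. In the Pcdha and Pcdhg clusters each of many variable first exons has its own promoter and is spliced to shared constant exons at the 3′ end, whereas each Pcdhb gene is a single exon with its own cytoplasmic tail. Neurons switch on a subset of the variable promoters, CTCF and cohesin take part in that choice, and the resulting surface identity is known for self-avoidance of neurites. In olfactory sensory neurons the clusters are known for their part in how axons gather and arborise in the glomeruli of the olfactory bulb.

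Because no label names an animal, a stage counts as 1 sample, and no test, standard error or p-value between stages was computed. Spreads are SDs over cells, and intervals on shares are exact Clopper-Pearson 95% intervals that cover counting error only, since PCR copies are not independent molecules. An FPKM of 1 for a transcript of 1 kb stood for 0.613 to 10.7 sequenced fragments, depending on the library. Stage markers followed the labels: the median FPKM of Omp, the olfactory marker protein of mature neurons, was 0, 0, 49.4, 4584 and 6257 from Progenitor to Mature Neuron, and that of Top2a, a topoisomerase of dividing cells, was 93, 0.245, 0.181, 0.0345 and 0. Markers of supporting or blood cells at an FPKM of 100 or more were found in 8 of 11, 3 of 9, 7 of 27, 6 of 13 and 15 of 25 cells in stage order. Their summed levels ran with the stages as well: the 8 sustentacular markers summed to medians of 162, 1.61, 1.93, 14.3 and 284 FPKM, and the 7 blood markers to 353, 0, 0, 0.161 and 0 FPKM. Within the sustentacular list Cbr2 had a median of 210 FPKM in Mature Neuron cells while Cyp1a2, Krt8 and Krt18 had medians of 0 there. The part of these other-cell markers in the protocadherin values was not tested. Among single genes, only the stage differences of Pcdha2, Pcdhga9 and Pcdhb7 were recomputed without the cells that carry them. Those of the other Pcdhb genes and of all listed genes below were not. The stages also differ in cell numbers on the labels: 16 of 25 Mature Neuron cells carry numbers from D213 to D274 and 8 of 11 Progenitor cells numbers from D168 to D205, and D316 to D434 is the only range with cells of every stage. What the number ranges stand for is not labelled. Values within D316 to D434 are given for the detection of each cluster and for differences of Pcdha2, Pcdhga9 and Pcdhb7.

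The 3 clusters lie next to each other on mouse chromosome 18 (mm10, plus strand). In the deposited annotation Pcdha spans 36930285 to 37187657, Pcdhb spans 37264998 to 37521419 and Pcdhg spans 37674335 to 37841873. The whole Pcdha cluster is a single gene there, named Pcdha2, with 9 transcripts that start in 9 different first exons and have 459 exonic bases in common. The whole Pcdhg cluster is likewise a single gene, named Pcdhga9, with 9 transcripts, 9 first exons and 2091 bases in common. The later GENCODE M21 annotation lists 13 Pcdha genes and 22 Pcdhg genes in their place. The choice of first exon, and with it the C-type isoforms Pcdhac1, Pcdhac2, Pcdhgc3, Pcdhgc4 and Pcdhgc5, therefore cannot be read from the gene table. The name Pcdha2 or Pcdhga9 below stands for all transcripts annotated for its cluster. With 9 first exons in each row, against 13 and 22 genes in M21, reads in first exons outside the row may be missing from it. The 22 Pcdhb rows are single exons with 1 transcript each, so identity per cell can be read for Pcdhb only.

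At an FPKM of 1 or more, taken here as detected, a cell had 2.22 ± 1.19 clustered protocadherin rows (SD, n = 85 cells), with a lowest count of 0, a median of 2 and a highest count of 6. At least 1 member was detected in 81 of 85 cells (95.3%, interval 88.4 to 98.7%). The 4 cells with none were D200, D357 and D411 of the Early Immature Neuron stage and D253 of the Mature Neuron stage. Progenitor cells averaged 2.09 ± 1.04 rows, Precursor cells 2.22 ± 1.2 rows and Early Immature Neuron cells 2.22 ± 1.37 rows. Late Immature Neuron cells averaged 2.85 ± 1.28 rows and Mature Neuron cells 1.96 ± 0.935 rows. The stage means thus lay within 1 SD of each other, with the Late Immature Neuron cells highest and the Mature Neuron cells lowest. The median number of genes of any kind at an FPKM of 1 or more was 4794, 3879, 4128, 4531 and 3536 in stage order. It too was lowest in Mature Neuron cells, and its part in the stage means was not tested. The summed FPKM of all members had medians of 36, 45.8, 81.8, 96.6 and 81.8 in stage order, and the single cells of each stage ran from at most 6.74 to at least 116 FPKM.

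**Figure D1:**
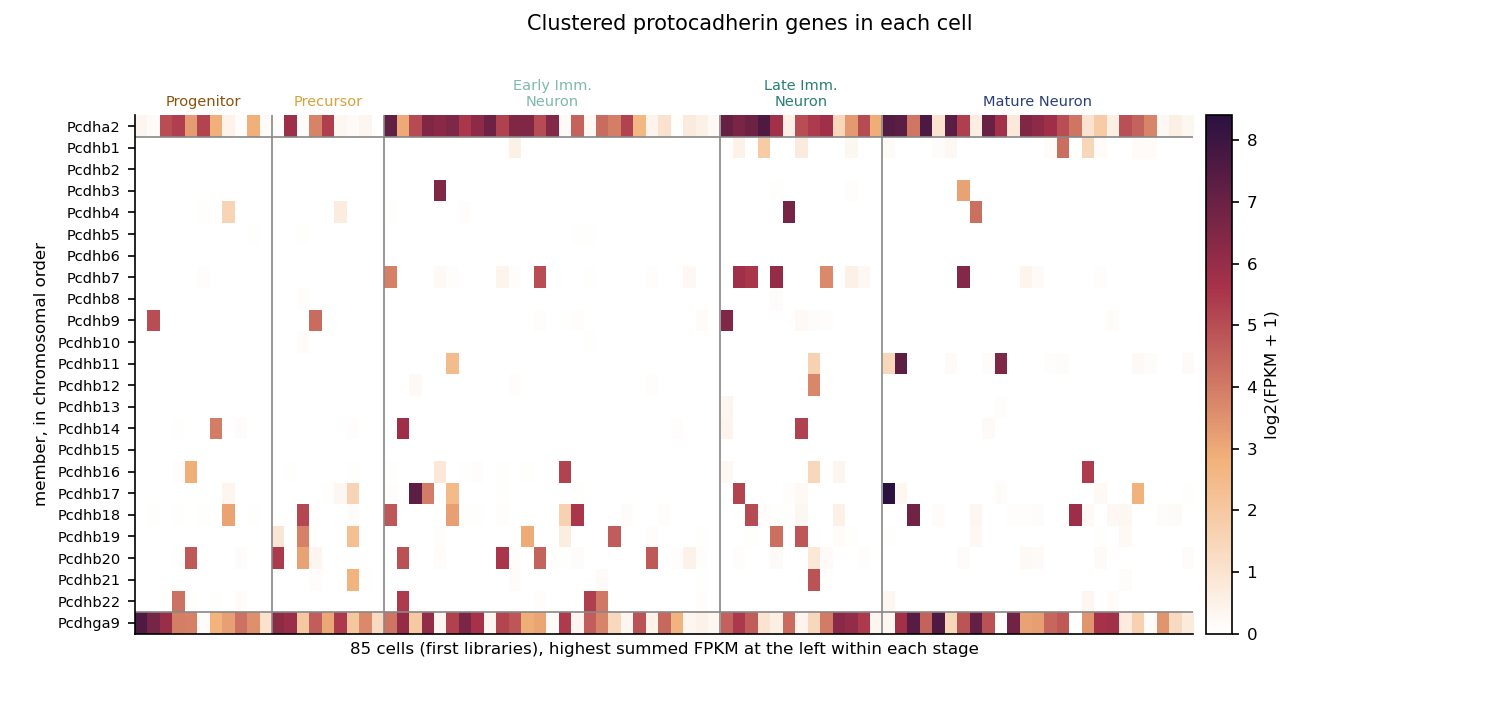
Each column is 1 of the 85 cells, ordered by stage and then by summed FPKM, and each row is 1 of the 24 members in chromosomal order; the colour gives log2(FPKM + 1). The Pcdha2 and Pcdhga9 rows are filled in 58 and 65 cells at an FPKM of 1 or more, while the Pcdhb block is sparse, with 66 of 1870 values at that level.

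Pcdha2, the row that stands for the Pcdha cluster, was detected in 58 of 85 cells (68.2%, interval 57.2 to 77.9%). It was found in 6 of 11 Progenitor cells (54.5%) and 3 of 9 Precursor cells (33.3%). Among Early Immature Neuron cells it was found in 20 of 27 (74.1%), among Late Immature Neuron cells in 12 of 13 (92.3%) and among Mature Neuron cells in 17 of 25 (68%). The intervals of the Late Immature Neuron share (64 to 99.8%) and the Precursor share (7.49 to 70.1%) overlap narrowly. The lowest, median and highest FPKM were 0.0587, 6.1 and 38.6 in Progenitor cells and 0.0203, 0.202 and 55.5 in Precursor cells. They were 0.0324, 31.9 and 143 in Early Immature Neuron cells, while Late Immature Neuron cells had 0.432, 41.1 and 191.97, and Mature Neuron cells 0.183, 21.7 and 201. All stages overlapped in range, and the 10 cells above 100 FPKM were all in the neuron stages. The Progenitor median rests on few cells, since leaving out 1 cell can bring it to 3.23 FPKM. Mature Neuron cells differed by number range, with Pcdha2 in 1 of 5 cells from D29 to D97 and 12 of 16 from D213 to D274. Within cell numbers D316 to D434, Pcdha2 was detected in 1 of 3 Progenitor cells, 2 of 5 Precursor cells, 15 of 19 Early Immature Neuron cells, 5 of 6 cells labelled Late Immature Neuron and 4 of 4 labelled Mature Neuron, so the Mature Neuron share was the highest there.

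Pcdhga9, the row that stands for the Pcdhg cluster, was detected in 65 of 85 cells (76.5%, interval 66 to 85%). It was found in 10 of 11 Progenitor cells (90.9%) and 9 of 9 Precursor cells. Among Early Immature Neuron cells it was found in 18 of 27 (66.7%), among Late Immature Neuron cells in 9 of 13 (69.2%) and among Mature Neuron cells in 19 of 25 (76%). The lowest, median and highest FPKM were 0.105, 13.9 and 193 in Progenitor cells, 1.49, 12 and 72.2 in Precursor cells, and 0.138, 7.37 and 95.9 in Early Immature Neuron cells. They were 0.236, 19.3 and 76.5 in Late Immature Neuron cells, while Mature Neuron cells had 0, 9.84 and 195.45. The Pcdhg row was thus read in nearly every Progenitor and Precursor cell, at stages where the Pcdha row was read in 9 of 20 cells. The Pcdhga9 medians of the stages differed less than the cells within each stage. Leaving out 1 cell can move the Mature Neuron median to 15.4 FPKM. Mature Neuron cells from D29 to D97 had Pcdhga9 in 5 of 5, with a median of 111 FPKM. Those from D213 to D274 had it in 10 of 16, with a median of 5.91 FPKM. Within D316 to D434 the counts were 2 of 3, 5 of 5, 12 of 19, 5 of 6 and 4 of 4 cells in stage order.

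**Figure D2:**
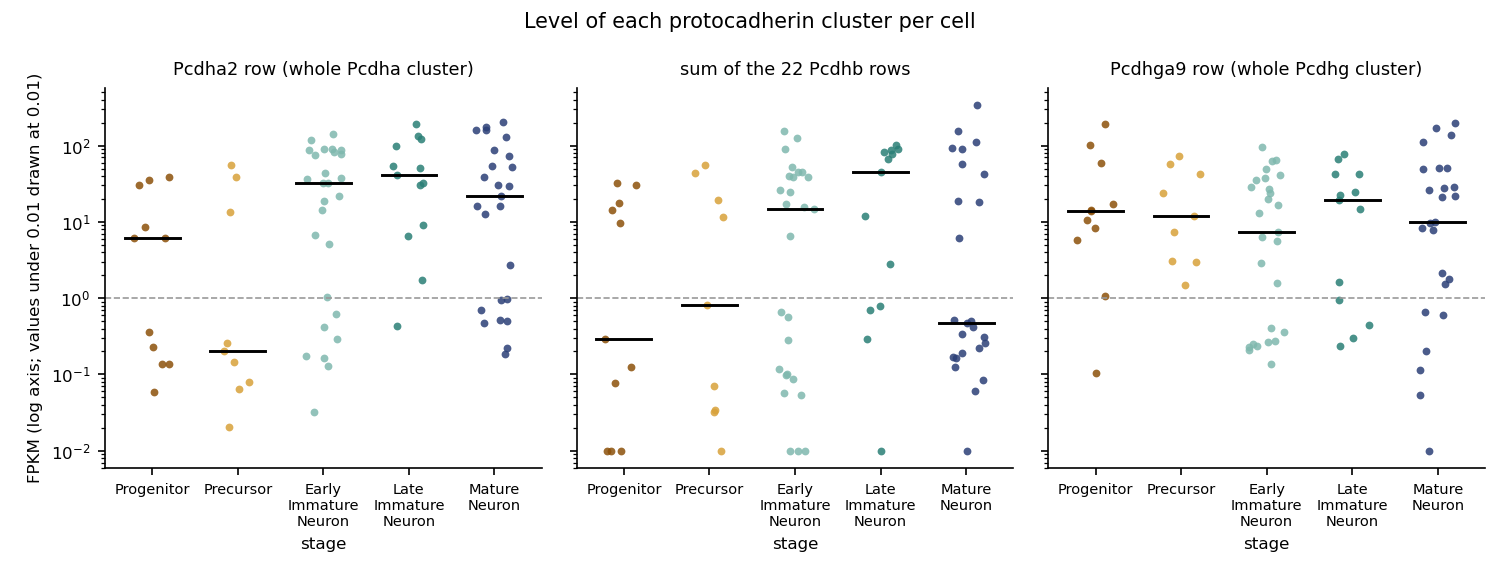
Points are cells, coloured by stage, with FPKM on a log axis, values under 0.01 drawn at 0.01, the median as a black bar and a dashed line at an FPKM of 1. The Pcdha2 median lies at 0.202 FPKM in Precursor cells and at 31.9 FPKM in Early Immature Neuron cells, whereas the Pcdhga9 medians all lie between 7.37 and 19.3 FPKM; in the Pcdhb panel the points of every stage lie on both sides of the line, with few near it.

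At least 1 Pcdhb gene was detected in 43 of 85 cells (50.6%, interval 39.5 to 61.6%), and 17 cells (20%, interval 12.1 to 30.1%) had more than 1. Progenitor cells averaged 0.636 ± 0.809 Pcdhb genes, Precursor cells 0.889 ± 1.27 and Early Immature Neuron cells 0.815 ± 0.921. Late Immature Neuron cells averaged 1.23 ± 1.17 and Mature Neuron cells 0.52 ± 0.714. A Pcdhb gene was found in 5 of 11, 4 of 9, 15 of 27, 9 of 13 and 10 of 25 cells in stage order, and the Mature Neuron interval (21.1 to 61.3%) overlaps the Late Immature Neuron interval (38.6 to 90.9%). The most in any cell was 4, in Late Immature Neuron cell D205, which held Pcdhb21 at 28.6 FPKM, Pcdhb12 at 12.3 FPKM, Pcdhb11 at 2.11 FPKM and Pcdhb16. With only D316 to D434 a Pcdhb gene was found in 2 of 3, 1 of 5, 10 of 19, 4 of 6 and 1 of 4 cells.

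Of the 22 Pcdhb genes, 15 were detected in at least 1 cell and 7 in none: Pcdhb2, Pcdhb5, Pcdhb6, Pcdhb8, Pcdhb10, Pcdhb13 and Pcdhb15. Pcdhb18 was detected most often, in 9 cells (10.6%), followed by Pcdhb7, Pcdhb17 and Pcdhb20 in 7 cells each (8.24%), Pcdhb19 in 6 and Pcdhb11 in 5. Pcdhb18 reached 7.52 FPKM in Progenitor cell D330, 34.3 FPKM in Precursor cell D179, 44.4, 26.5, 8.24 and 2.15 FPKM in 4 Early Immature Neuron cells, 31.9 FPKM in Late Immature Neuron cell D344, and 113 and 57.7 FPKM in 2 Mature Neuron cells. It was therefore read in 1 or more cells of every stage, with no stage holding most of its cells. Pcdhb17 had the highest value of the whole cluster, 338 FPKM in Mature Neuron cell D265, and 154 FPKM in Early Immature Neuron cell D331. Its other 5 cells had 1.92 FPKM (Precursor), 4.62 and 14.6 FPKM (Early Immature Neuron), 35.6 FPKM (Late Immature Neuron) and 5.8 FPKM (Mature Neuron). Pcdhb7 was read in no Progenitor or Precursor cell, in Early Immature Neuron cells at 30.4 and 13.5 FPKM, in 4 Late Immature Neuron cells at 11.9, 52.8, 44.5 and 64.4 FPKM, and in 1 Mature Neuron cell at 83.4 FPKM. Each of these genes was under an FPKM of 1 in most cells of every stage, and in the cells where it was detected its median was 31.9 FPKM for Pcdhb18, 14.6 FPKM for Pcdhb17 and 44.5 FPKM for Pcdhb7.

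Position and annotation differed between the genes that were read often and those that were not, a comparison chosen after the counts were seen. The 7 genes at the 3′ end of the array, Pcdhb16 to Pcdhb22, were all detected and held 39 of the 66 detections, whereas 8 of the 15 genes from Pcdhb1 to Pcdhb15 were detected and held the other 27. Copying from an oligo(dT) primer starts at the 3′ end of a transcript, and the length annotated there varied: the bases after the stop codon ran from 0 (Pcdhb1 and Pcdhb8) to 4568 (Pcdhb19). The 14 genes with 500 or more such bases held 59 detections, with a median of 4 cells per gene and 12 genes detected. The 8 genes with fewer held 7 detections, with a median of 0 cells and 3 genes detected. Pcdhb16 to Pcdhb22 have 554 to 4568 bases after the stop and all fall in the longer group. Their 39 detections are thus among the 59, and the comparisons by position and by length overlap. The part of each was not tested. Among the 7 undetected genes 5 have fewer than 500 bases after the stop, and Pcdhb5 and Pcdhb13 have 966 and 1248. The later GENCODE M21 annotation gives a later 3′ end to 14 of the 22 genes, a count that includes very short extensions, such as 1 base for Pcdhb19 and 12 for Pcdhb21. The longest extension is that of Pcdhb14, by 5256 bases, followed by 3060 for Pcdhb22, 1276 for Pcdhb6, 1165 for Pcdhb17 and 994 for Pcdhb8, and among the undetected genes Pcdhb10, Pcdhb13 and Pcdhb15 gain 0. Whether reads beyond the deposited 3′ ends entered these FPKM is not stated, and the part of the annotated ends in the counts was not tested. Sequence shared between genes was limited in the M21 transcripts. Of all runs of 50 bases in those of a Pcdhb gene, a median of 4.27% also occur in those of another Pcdhb gene. The highest share was 12% (Pcdhb12, mostly with Pcdhb11). Shares in the deposited transcripts, which end elsewhere for some genes, were not computed. Pcdhb11 and Pcdhb12 were read together in D205, and Pcdhb21 shares 9.49% of its runs with Pcdhb22, so these pairs are the least certain.

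**Figure D3:**
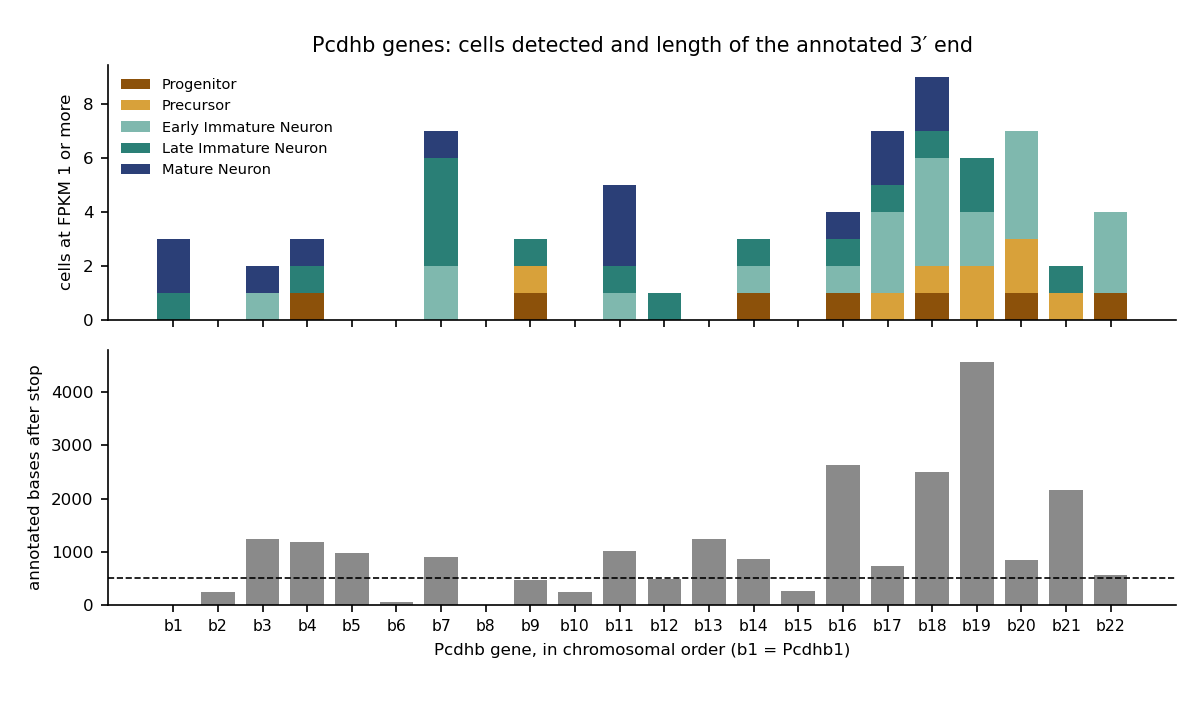
For each Pcdhb gene in chromosomal order, the upper bars count the cells at an FPKM of 1 or more, stacked by stage, and the lower bars give the annotated bases after the stop codon, with a dashed line at 500 bases. Pcdhb18 is highest with 9 cells, and of the 7 genes with no bar in the upper panel 5 lie under the dashed line in the lower one.

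The detected sets of Pcdhb genes differed between cells. Among the 43 cells with a Pcdhb gene, 26 had a single one. There were 28 different sets, of which 18 occurred in 1 cell and 10 in more than 1. Sets also differed between libraries of the same cell, since 1 of 9 Pcdhb genes was found in both libraries of a repeated cell (below). The 17 cells with several genes gave 30 pairs of genes, 28 of them different. Direct neighbours on the chromosome made 4 of the 30 pairs: Pcdhb18 with Pcdhb19 and Pcdhb19 with Pcdhb20 in D179, Pcdhb17 with Pcdhb18 in D378, and Pcdhb11 with Pcdhb12 in D205. Pcdhb7 with Pcdhb18 (D362 and D344) and Pcdhb11 with Pcdhb17 (D378 and D265) were the pairs found more than once.

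The Pcdhb values above 0 were mostly either at 1 or 2 fragments or far higher. Of 1870 gene and cell values 1634 were 0, 170 lay above 0 and under 1 FPKM, and 66 (3.53%) were at 1 or more. Converted to fragments with the depth recovered for each library, the 66 detections had a median of 454 fragments and ran from 5 to 3349, and 54 of them rested on 100 or more. The 170 low values had a median of 0.999 fragments. Of these, 102 lay within 0.05 of exactly 1 fragment, and 137 were at most 2 fragments within the same tolerance. For 160 of the 170 low values the same gene was detected in another cell, repeat libraries included. For 143 (84.1%) it was at least 100 times higher in another cell of the same number range. Since low values are mostly 1 or 2 fragments, a modest FPKM elsewhere meets that limit. The share was not computed for values of 0 or for other genes, so the count is not read as a trait of these values. Pcdhb18, for example, was above 0 in 38 cells and detected in 9. The groups overlapped little, since 65 of the 66 detections rested on at least 10 fragments and the highest value under 1 FPKM on 56.9. With detection set at 10 or more fragments in place of an FPKM of 1, a limit added after seeing the data, the mean number of Pcdhb genes per cell was 0.636, 1.11, 0.889, 1.31 and 0.48 in stage order.

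**Figure D4:**
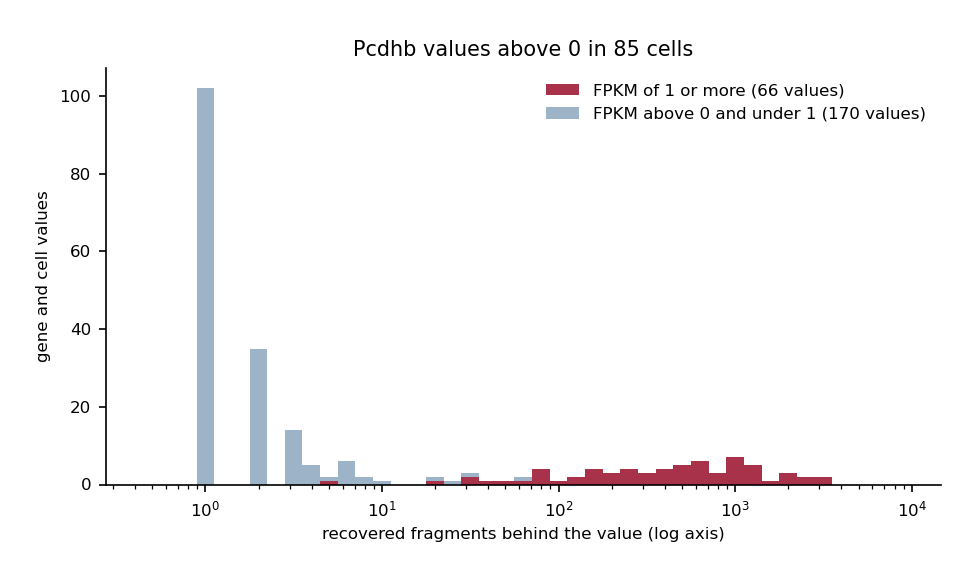
Histogram of the 236 Pcdhb values above 0 in 85 cells by the number of recovered fragments behind them, on a log axis, coloured by whether the FPKM is 1 or more. The low values pile up at 1 and 2 fragments and the 66 detections spread around a median of 454 fragments.

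The technical repeats show how far identity in a single library can be relied on. In the 8 repeated cells, 23 members were detected in either library and 6 of them in both (26.1%, interval 10.2 to 48.4%). For Pcdhb 1 of 9 was found in both (11.1%, interval 0.281 to 48.2%): Pcdhb19 in Late Immature Neuron cell D233, at 27.2 FPKM in the first library and 20 FPKM in the repeat. Others were high in 1 library and near 0 in the other. Early Immature Neuron cell D187 had Pcdhb22 at 38.1 FPKM in its first library and 0 in its repeat, and Mature Neuron cell D251 had Pcdhb1 at 18.3 FPKM and Pcdhb14 at 0 in its first library against 0 and 35.2 FPKM in its repeat. Pcdha2 was found in both libraries in 3 of 8 cells, and in D200 it had 0.423 FPKM in the first library and 130 FPKM in the repeat. Pcdhga9 was found in both in 2 of 6 cells, and in D230 it had 76.5 FPKM in the first library and 0.9 FPKM in the repeat. Of 8 Pcdhb pairs whose higher value lay at 10 to 100 FPKM, 1 was detected in both libraries (12.5%), against 42.3% of all other genes in that range. For all other genes the share was 19% at 1 to 10 FPKM and 66.7% at 100 FPKM or more. First and repeat libraries each held 5 Pcdhb detections in these cells and together 9, so the number read from 1 library was below that read from both, and a gene missing from 1 library is not shown to be silent in the cell.

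**Figure D5:**
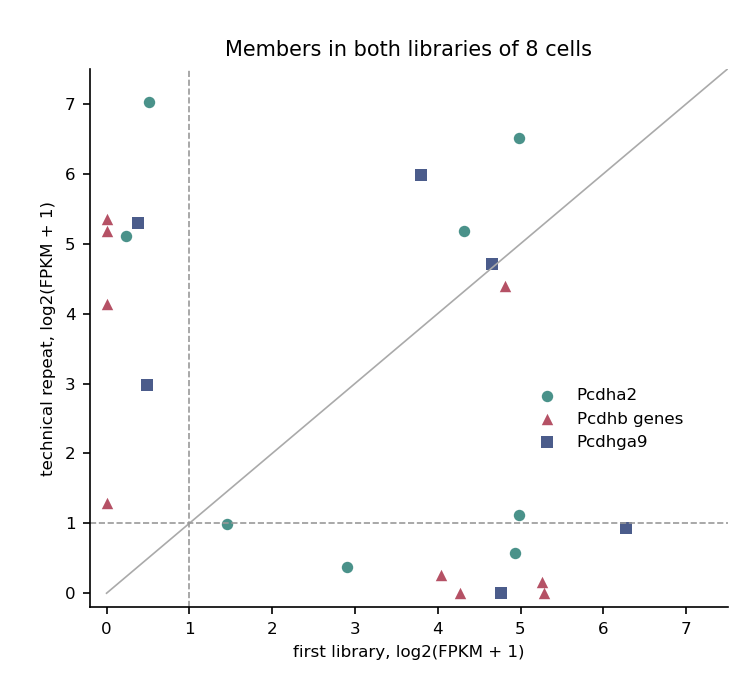
Each point is a member in 1 of the 8 repeated cells that was detected in either library, with log2(FPKM + 1) of the first library across and of the repeat upwards, a diagonal of equality and dashed lines at an FPKM of 1. The 6 points in the upper right are members found in both libraries; 17 lie beyond a dashed line, among them 8 of the 9 Pcdhb points.

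The 3 clusters were detected in all combinations. All 3 were detected in 24 cells, Pcdha2 with Pcdhga9 alone in 19, Pcdha2 with Pcdhb in 8, Pcdhb with Pcdhga9 in 10, a single cluster in 20 and none in 4. Pcdhga9 was detected in 43 of 58 cells with Pcdha2 (74.1%, interval 61 to 84.7%) and in 22 of 27 cells without it (81.5%, interval 61.9 to 93.7%). A Pcdhb gene was detected in 32 of 58 cells with Pcdha2 (55.2%) and in 11 of 27 without (40.7%), with overlapping intervals (41.5 to 68.3% and 22.4 to 61.2%). With Pcdhga9 the counts were 34 of 65 cells (52.3%) and without it 9 of 20 (45%). In each of these 3 comparisons the intervals of the shares overlapped. Libraries with more members also had more genes of any kind: a median of 4509 genes reached an FPKM of 1 in the 5 cells with at least 3 Pcdhb genes, 4278 with 2, 4040 with 1 and 3772 with none, and 4309 in cells with Pcdha2 against 3730 in cells without. The part of this difference in the counts per cell was not tested.

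Over the 84 cells with a summed protocadherin FPKM of at least 1, the median share of that sum in the highest member was 71.6%. In stage order the medians were 66.1, 62.4, 64.4, 56.6 and 81.5%, and single cells ran from 32.6 to 99.9%. Pcdhga9 was the top member in 7 of 11 Progenitor and 6 of 9 Precursor cells, whereas Pcdha2 was the top member in 13 of 26 Early Immature Neuron cells, 7 of 13 cells labelled Late Immature Neuron and 11 of 25 labelled Mature Neuron. A Pcdhb gene led in 2, 2, 7, 3 and 5 cells. Pcdha2 and Pcdhga9 each stand for all annotated transcripts of a cluster here, while a Pcdhb gene is a single gene, so the top member compares unlike units. In D347, for example, Pcdhga9 led at 63.7 FPKM, while the Pcdhb genes together had 125 FPKM. The 3 cells with the highest sums in the Progenitor stage were all led by Pcdhga9, at 193 FPKM in D170, 101 FPKM in D337 and 60 FPKM in D189. In the Precursor stage they were led by Pcdhga9 at 72.2 FPKM in D319 and 58.2 FPKM in D398, and by Pcdhb18 at 34.3 FPKM in D179. In the Early Immature Neuron stage the leaders were Pcdha2 at 143 FPKM in D362, Pcdhga9 at 63.7 FPKM in D347 and Pcdhb17 at 154 FPKM in D331. All 3 in the Late Immature Neuron stage were led by Pcdha2, at 135 FPKM in D234, 98.1 FPKM in D334 and 122 FPKM in D344. In the Mature Neuron stage Pcdhb17 led D265, which had the highest sum of all cells at 516 FPKM, Pcdha2 led D255 at 159 FPKM, and Pcdhga9 led D95 at 167.5 FPKM.

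Differences of mean log2(FPKM + 1), later minus earlier stage, were taken over the 11718 genes that reached an FPKM of 1 in 5 or more cells, and a difference of 1 or more in either direction was counted. Of the 24 members 8 met that filter: Pcdha2, Pcdhga9, Pcdhb7, Pcdhb11, Pcdhb17, Pcdhb18, Pcdhb19 and Pcdhb20. Between Precursor and Progenitor 0 of 8 members passed, beside 24.2% of all genes (11.3% higher, 12.9% lower). Pcdhga9 differed by -0.10 in that pair, but by 1.03 within D316 to D434 and by 0.79 without the cells that hold other-cell markers, and it lay between -0.47 and 0.27 with each cell left out. Between Early Immature Neuron and Precursor 1 of 8 passed, beside 28.4% of all genes (14.1% higher, 14.3% lower): Pcdha2, with means of 3.95 ± 2.58 in Early Immature Neuron cells and 1.78 ± 2.46 in Precursor cells on the log2(FPKM + 1) scale and a difference of 2.17. Leaving out each cell in turn kept that difference between 1.95 and 2.68, it was 2.07 within D316 to D434, and it was 1.62 without the cells that hold other-cell markers. Pcdhga9 differed by -0.77 in the same pair, with means of 3.03 ± 2.28 in Early Immature Neuron cells and 3.8 ± 1.82 in Precursor cells. That difference was -1.08 without Precursor cell D383 and lay between -1.08 and -0.47 with each cell left out, and it was -1.30 within D316 to D434 and -1.09 without the cells that hold other-cell markers. Pcdha2 differed by -0.55 between Precursor and Progenitor cells, by -1.06 without Precursor cell D398, by 0.36 within D316 to D434 and by 0.62 without the cells that hold other-cell markers, so its direction is not fixed.

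Between Late and Early Immature Neuron cells 1 of 8 members passed, beside 24.7% of all genes (15.3% higher, 9.4% lower). It was Pcdhb7, with means of 1.67 ± 2.54 in Late and 0.368 ± 1.18 in Early Immature Neuron cells. The difference of 1.30 rests on 4 of 13 and 2 of 27 cells, and it fell below 1 without any of the Late Immature Neuron cells D334, D344 or D412, to 0.94 without D412. It was 2.75 within D316 to D434 and 2.21 without the cells that hold other-cell markers. Pcdha2 differed by 0.93, with means of 4.87 ± 2.2 in Late and 3.95 ± 2.58 in Early Immature Neuron cells. It lay between 0.70 and 1.29 with each cell left out, and the absence of any of 13 cells, D406 most, brought it past 1; it was 0.32 within D316 to D434 and 1.85 without the cells that hold other-cell markers. Pcdhga9 differed by 0.38 in this pair, by 1.35 within D316 to D434 and by -0.35 without the cells that hold other-cell markers. Between Mature and Late Immature Neuron cells 1 of 8 passed, beside 18.7% of all genes (2.86% higher, 15.8% lower): Pcdhb7 at -1.39, with 1 of 25 Mature and 4 of 13 Late Immature Neuron cells positive, while Pcdha2 differed by -0.89 (between -1.26 and -0.67 with each cell left out) and Pcdhga9 by 0.15. Within D316 to D434 the Pcdha2 difference of that pair was 0.26 and that of Pcdhga9 was -0.21, both against the direction of the pooled value, and that of Pcdhb7 was -1.24. The Pcdhga9 difference was also negative, at -0.45, with FPKM rescaled to a fixed total without mitochondrial genes, where the median of all genes was -0.49. Without that rescaling the median of all genes in that pair was -0.20. Between Mature Neuron and Progenitor 1 of 8 passed, beside 42% of all genes (15.8% higher, 26.1% lower): Pcdha2, with means of 3.98 ± 2.69 in Mature Neuron and 2.33 ± 2.18 in Progenitor cells and a difference of 1.65, within 1.43 and 1.95 with each cell left out, 3.02 within D316 to D434 and 3.13 without the cells that hold other-cell markers. Pcdhga9 differed by -0.34 there, with means of 3.56 ± 2.51 in Mature Neuron and 3.9 ± 2.23 in Progenitor cells. It was 0.87 within D316 to D434 and 0.03 without Progenitor cell D170, so its direction is not fixed either. Pcdhb7 differed by 0.28 in that pair and by 1.74 within D316 to D434. In each pair, over all first libraries, the share of the 8 members past 1 was below that of all genes. Apart from Pcdha2 and Pcdhga9 these members are Pcdhb genes detected in 5 to 9 cells, which leaves little room for a difference of 1. All genes were not matched for the number of cells, so the lower share is not read as a trait of the family. Each difference was smaller than the larger SD over cells of its pair.

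Genes that act on the clusters or with their products were read from lists. Of 18 regulators of the clusters, such as CTCF, cohesin subunits and DNA methyltransferases, 17 met the filter; in Mature Neuron against Progenitor cells 0 were higher and 8 lower by 1 or more, beside 15.8% higher and 26.1% lower among all genes, and their median difference was -0.99 beside -0.17 for all genes. Smchd1, a chromatin protein that in mice represses the clusters, had the largest difference, with means of 1.74 ± 2.4 in Mature Neuron and 6.44 ± 2.51 in Progenitor cells, a difference of -4.70. It was detected in 12 of 25 Mature Neuron and 11 of 11 Progenitor cells, and its median FPKM was 89.5, 135, 75.7, 2.28 and 0.497 in stage order. Trim28, a corepressor that acts with zinc finger proteins, differed by -2.89 and Sirt1, a deacetylase, by -2.69. Dnmt3a, a de novo DNA methyltransferase, followed another course: its difference was 2.79 between Early Immature Neuron and Precursor cells and -1.60 between Mature and Late Immature Neuron cells. Dnmt3b, the methyltransferase known to act on these promoters in mice, was detected in 3 Progenitor, 1 Precursor and 1 Early Immature Neuron cell.

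Of 13 non-clustered protocadherins, single genes of the same superfamily, 8 met the filter, and in Mature Neuron against Progenitor cells 2 were higher and 0 lower by 1 or more, beside 15.8% higher and 26.1% lower among all genes. Cdhr1, formerly Pcdh21, was the most widely detected, in 55 of 85 cells, with median FPKM of 0.578, 35.9, 0.557, 37.5 and 22.6 in stage order. Its difference was 3.23 between Late and Early Immature Neuron cells and -2.69 between Early Immature Neuron and Precursor cells. Pcdh8 was detected in 29 cells and differed by -2.07 between Early Immature Neuron and Precursor cells. In the same pair Pcdh17, detected in 10 of 27 and 0 of 9 cells, differed by 1.57. Pcdh1 was detected in 5 of 25 Mature Neuron and 0 of 11 Progenitor cells, a difference of 1.03.

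Of 19 intracellular partners and processing enzymes 16 met the filter, and in Mature Neuron against Progenitor cells 2 were higher and 7 lower by 1 or more, beside the same 15.8% and 26.1% of all genes. Adam10, a protease that cleaves protocadherins at the membrane, had means of 0.728 ± 1.53 in Mature Neuron and 4.05 ± 1.95 in Progenitor cells, a difference of -3.32. Nckap1 and Brk1, subunits of the WAVE complex that drives actin branching, differed by -2.58 and -2.54 in that pair. Fyn, a Src family kinase, differed by 2.31 between Precursor and Progenitor cells and by -2.11 between Late and Early Immature Neuron cells. The kinases Ptk2 and Ptk2b, which bind the cytoplasmic tails, were detected in 21 and 2 of 85 cells.

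Other annotated genes lie inside the clusters. Gm10545 and Gm10544, on the minus strand within Pcdha, were detected in 2 cells and 1 cell, the highest value being 33.5 FPKM for Gm10544. Gm24401, on the plus strand within Pcdhg, was detected in 3 cells with a highest value of 1011 FPKM. Whether reads were assigned by strand is not given in the sources used here, so reads of overlapping genes cannot be told apart.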

How the data were processed

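The deposited gene table gives FPKM (fragments per length and depth), computed by the authors, for 32975 rows in 93 libraries; 107 rows are control sequences and were left out, and the authors' separate receptor table was not used here. Per the submitters' processing notes, the tools were Cufflinks 2.2.1, TopHat2 2.0.14, cutadapt 1.2.1, Trim Galore and CASAVA 1.8.2, with mm10. Settings were not given in the sources used here. Also deposited was an annotation with mm10 positions (other values), from which members, transcripts and 3′ ends were taken. GENCODE M21 served for comparison of gene structure and for the sequence shared between Pcdhb genes.

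From these FPKM the first library of each of 85 cells was used. Detected means an FPKM of at least 1. Differences are means of log2(FPKM + 1), later minus earlier stage, for genes detected in at least 5 cells; the pseudocount of 1 understates changes of low genes. Fragments behind a value were recovered from the step between low FPKM of single-exon genes of 800 to 4000 bases, with 2282 such genes as candidates. A library had 40 to 149 low values above 0 among them. Of these, 95 to 100% per library came out within 0.05 of a whole fragment. Both procedures were run on simulated data of the form each assumes, normal values for the differences and whole fragments for the depth. Those runs check the computation only, and the Pcdhb values, mostly 0, are not of the normal form. No test between stages was made, because a stage is 1 sample. Alternatives were other FPKM thresholds, pseudocounts and filters, scaling without mitochondrial genes, a single range of cell numbers, cells without other-cell markers, averaged repeats, and single cells left out. The last, and the fragment threshold for Pcdhb, were added after seeing the data.

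The members and gene lists were chosen with earlier results of these data known. Named were the 3 members of a cluster found in most cells (ties by summed FPKM), the C-type isoforms, the top member of the 3 cells with the highest sums per stage, and up to 4 genes of each list by largest difference. Other Pcdhb genes, Ptk2, Ptk2b, Dnmt3b and genes inside the clusters were named after their values were seen. Analyses ran in Python 3.11.15 with numpy 2.4.6, pandas 2.3.3 and scipy 1.17.1.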

Additional observations from a re-analysis of the deposited data

How the results depend on the processing

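Of the 145 recomputed summary values 112 stayed within 1 SD, their interval or 1.5 times, and 33 moved; none changed sign among the differences past 1. With Pcdhb alone the members per cell averaged 0.636, 0.889, 0.815, 1.23 and 0.52 in stage order and 45.5, 44.4, 55.6, 69.2 and 40% of cells had one; the median sum was 0.812 FPKM in Precursor and 14.6 FPKM in Early Immature Neuron cells, and the top gene held 99.1% in Progenitor and 99.2% in Early Immature Neuron cells. At an FPKM of 0.1, Late Immature and Mature Neuron cells had 4.46 and 3.56 members, and all cells (100%) of the Early Immature and Mature Neuron stages had 1. Scaling without mitochondrial genes divided each FPKM by the sum over the other genes and set that sum to a fixed total. Median sums were then 107, 207 and 211 in the Precursor, Early and Late Immature Neuron stages. These are in another unit than FPKM, so the change of total and the removal of mitochondrial genes are mixed in them. In the last pair of neighbouring stages the same scaling moved the median of all genes to -0.49, against -0.20. The genes past 1 became 3606 (171 higher, 3435 lower), against 2192 (335 higher, 1857 lower). Relative to the median of all genes the Pcdha2 difference was -1.02 in place of -0.69. The part of mitochondrial genes in these changes was not tested. With cell numbers D316 to D434 or without cells holding other-cell markers, 100% of Mature Neuron cells had a member, and the genes past 1 numbered 4411 and 4325 for Precursor minus Progenitor and 4213 and 3489 for Mature minus Late Immature Neuron. With a pseudocount of 0.1 the 5 pairs gave 5136, 5636, 4968, 4314 and 7378 genes. Of 85 recomputed differences of Pcdha2, Pcdhga9 and Pcdhb7, 13 gained a difference past 1, 0 lost one and 10 turned sign, each from a value under 1; examples past 1 are Pcdhga9 between Early Immature Neuron and Precursor cells at -1.30 within D316 to D434 and Pcdha2 between Late and Early Immature Neuron cells at 1.85 without other-marker cells. The causes were not tested. No paired analysis was possible because replicate numbers only name cells. Depth limits reading below 1 FPKM, where most Pcdhb values are 1 or 2 fragments.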
